A study of Mus musculus with 16 samples.

Results

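Replication-dependent histone genes supply the bulk of the histones that package newly copied DNA, and 67 of them, of 46078 genes in the table, were followed here in mouse kidney. They were taken by name: symbols beginning Hist1h, Hist2h, Hist3h or Hist4, without names ending in -ps, and with a value above 0 in at least 4 of 16 libraries. Of 71 rows with such names 1 was a -ps name, and Hist1h2ba, Hist2h2aa1 and Hist2h3c1 did not reach 4 libraries. The 67 hold 6 genes for the linker histone H1, 19 for H2A, 18 for H2B, 11 for H3 and 13 for H4. In GENCODE M21 (GRCm38), 55 carry Hist1 names and lie on chromosome 13 (54 between 21715763 and 23934851, and Hist1h2al at 51202727 to 51203065), 9 lie in Hist2 on chromosome 3, 2 in Hist3 on chromosome 11 and 1, Hist4h4, on chromosome 6. All but 3 of them are protein coding in M21, which lists Hist1h2al as a processed pseudogene and Hist1h2aj as an unprocessed pseudogene. The third, 1 of 2 rows named Hist2h2bb (ENSMUSG00000050936), is listed as a long non-coding RNA. Membership rests on the name, and whether each gene depends on DNA replication was not tested. 

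In a dividing cell these genes are transcribed in S phase, when DNA is copied. Their mRNAs end in a short stem-loop in place of a poly(A) tail, which the stem-loop binding protein SLBP holds during processing, export and translation, and they are broken down when DNA synthesis stops. Most kidney tubule cells of an adult do not divide, but tubule cells re-enter the cell cycle after injury. Some members are also transcribed with a poly(A) tail in cells that do not divide. Libraries made by removing ribosomal RNA, as here, keep both forms, while selection for poly(A) would lose the stem-loop form.

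The study asked how preconditioning alters kidney injury by cisplatin, a platinum drug against tumours that damages tubule cells. Kidneys of C57BL/6 mice aged 20 weeks were perfused and taken 72 h after an intraperitoneal injection, with 4 libraries in each of 4 groups. Mice without preconditioning received saline (BL_vehicle) or cisplatin (BL_cisplatin). Others received cisplatin after calorie restriction of 4 weeks (CR_cisplatin) or after exposure to hypoxia of 2, 4 and 8 h on 3 successive days (HP_cisplatin). Neither preconditioning was given with saline, and each library holds all cell types of the kidney piece taken, so that fewer cells of a type and less RNA per cell cannot be told apart. The labels do not say that each library is a separate mouse, and p-values measure the spread between these libraries.

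Levels are in TPM, read counts divided by gene length and scaled so that each library sums to 1000000. Read counts recovered from them came to between 49180903 and 62604521 per library, of which the 67 genes took 24446 to 36482. Library titles begin with 1 of 2 codes: BL_cisplatin 1 to 4 and CR_cisplatin 1 share the first and the other 11 libraries the second, so for BL_cisplatin against vehicle or against HP_cisplatin the title code and the group cannot be told apart. Proximal tubule and thick ascending limb markers checked the tissue and were present in every library, summing to at least 103 and 162 TPM. Rn7s1 and Rn7s2, RNAs of the signal recognition particle, took 18.1 to 19.2% of all TPM in vehicle and 22.2 to 28.8% in BL_cisplatin, which by itself lowers the TPM of other genes there. The mitochondrial ribosomal RNAs mt-Rnr1 and mt-Rnr2 went the other way in the mean. They took 32.0 to 34.5% in vehicle (mean 33.0%) and 27.4 to 33.3% in BL_cisplatin (mean 29.6%). The HP_cisplatin libraries differed widely among themselves, and HP_cisplatin 4 stood closer to CR_cisplatin 4 than any other 2 libraries did: the median over genes of the variance between their counts was 1.8 times that of counting alone, against at least 3.37 for every other pair. Comparisons with HP_cisplatin are therefore also given without these 2 libraries.

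The stem-loop that defines this mRNA class was found in the M21 transcripts of 44 of the 67 genes. It was searched after the coding sequence as 16 bases that begin with GG and end with CC, with 6 base pairs around a loop of 4 bases. Models without a hit include short ones, such as Hist1h4k (312 bases), Hist1h2bl (381) and Hist1h2ak (393), and the long Hist2h2be (2620). A model that stops before the stem-loop cannot give a hit, so its absence does not show that a gene lacks one. The 6 shown belong to genes on which the results turn: Hist1h3c, Hist1h3g, Hist1h2ac and Hist1h1e rose after cisplatin, while Hist1h4c and Hist1h4h fell. Capitals mark the stem-loop and small letters the 5 bases on each side, 5′ to 3′ on the transcript.

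Hist1h3c: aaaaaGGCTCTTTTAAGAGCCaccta
Hist1h3g: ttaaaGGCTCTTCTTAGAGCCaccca
Hist1h2ac: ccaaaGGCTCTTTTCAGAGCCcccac
Hist1h1e: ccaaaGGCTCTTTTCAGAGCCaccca
Hist1h4c: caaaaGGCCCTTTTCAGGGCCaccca
Hist1h4h: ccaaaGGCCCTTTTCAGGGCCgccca

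Across the 44 genes 8 different stem-loops occurred. The form shown for Hist1h1e and Hist1h2ac was in 24 genes of classes H1, H2A, H2B and H3. The form shown for Hist1h4c and Hist1h4h was in 7 genes, all of class H4, and that of Hist1h3c was in 6 genes of H1, H2B and H3. Gene models differ in what follows: 21 end within 60 bases of the stem-loop, as the model of Hist1h4h does (46 bases), 22 run on for more than 100 bases, as those of Hist1h4c (454) and Hist1h2ac (2010) do, and 1, Hist1h3c, ends after 74. The reads of a library do not show by these values which end a transcript had.

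In vehicle kidneys a few genes carried most of the histone mRNA. The 10 genes with the highest mean TPM over all libraries held 82.3 to 84.3% of the summed TPM of the 67 in the vehicle libraries. On this per-length scale, over the 4 vehicle libraries, Hist1h4c stood at 208 ± 22.6 TPM (SD, n = 4), followed by the H2B gene Hist1h2bc at 161, Hist1h4h at 160, and the H2A gene Hist2h2aa2 at 147. The 2 linker histone genes Hist1h1c and Hist1h1e followed at 77.9 and 74.8 TPM, then Hist1h4d at 65.8, Hist1h2al at 52.0, Hist1h2bg at 44.5 and Hist1h4b at 24.8. Neighbours in that order such as Hist1h2bc and Hist1h4h overlapped over their libraries (154 to 172 and 133 to 177 TPM), as did Hist1h1c and Hist1h1e. All 11 H3 genes together summed to 33.5 to 39.1 TPM, below Hist1h2bg alone (40.9 to 49.6 TPM).

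After cisplatin without preconditioning most replication-dependent histone genes were higher than in vehicle, and those of H3 without exception. The groups compared also differ in title code. Against vehicle, 45 of the 67 rose (67.2%) and 4 fell, where 31.3% of 26898 genes tested rose and 19.3% fell (limma on log2(TPM + 1), adjusted p below 0.05). Of the 65 members above 0 in at least 4 libraries outside BL_cisplatin 44 rose. Hist2h2bb (ENSMUSG00000050936), with at most 7 reads in a library, passed the filter on low values only through BL_cisplatin and is among the 45. Proximal tubule markers summed to 2512 to 3265 TPM in vehicle and 103 to 167 in BL_cisplatin, and their part in the result was not tested. The median fold of the mean TPM over the 67 was 1.86, and their median log2 fold change was 0.57 against 0.03 for all genes tested. In 42 of the 67 every BL_cisplatin library lay above every vehicle library and in 3 below (all genes: 30.2% above and 18.3% below). On the log2(TPM + 1) scale low genes show a smaller fold change than their TPM does.

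**Figure D1:**
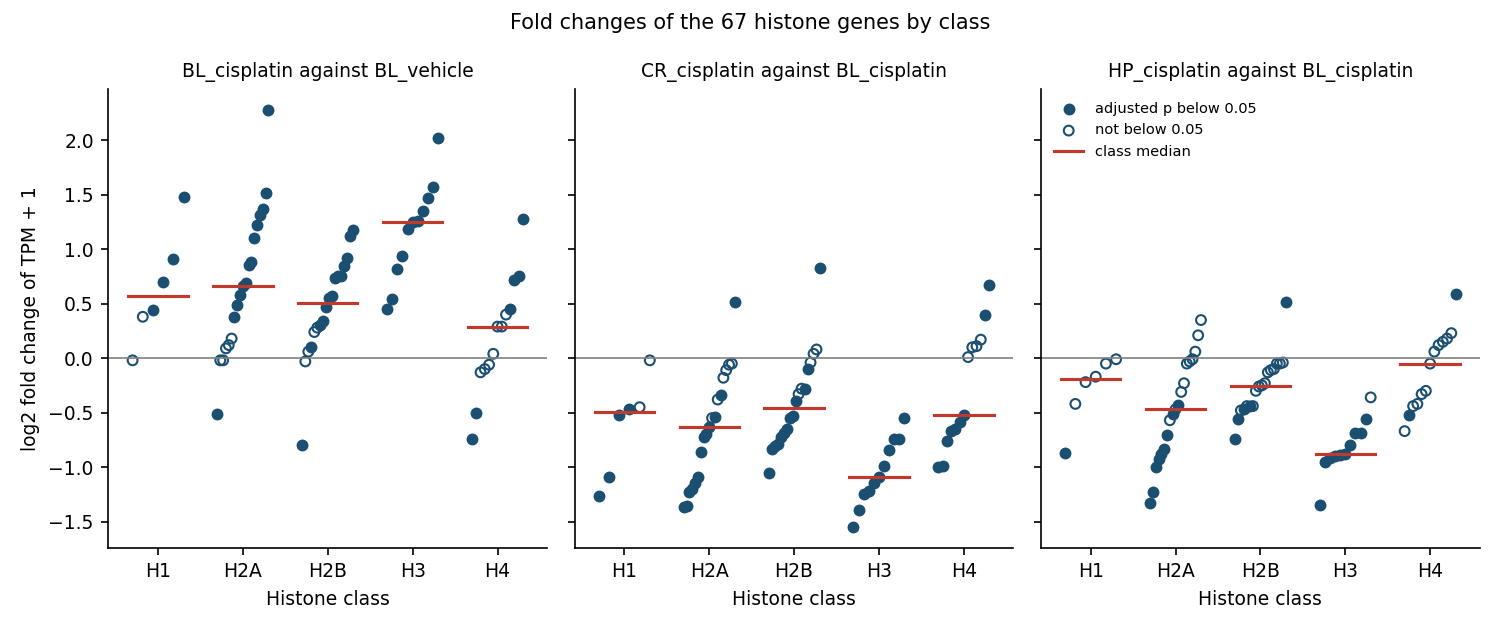
Log2 fold change of TPM + 1 (vertical axis) of each of the 67 histone genes by class (horizontal axis), in 3 comparisons. Filled points have an adjusted p below 0.05, open points do not, and the red line is the class median. After cisplatin all 11 H3 genes lie above 0 and filled, with a median of 1.25, and in CR_cisplatin against BL_cisplatin all 11 lie below 0 and filled.

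H3 genes encode the histone whose tail carries many regulatory marks, and all 11 rose, by 0.45 (Hist1h3d) to 2.02 (Hist1h3c) on the log2 scale. Hist1h3c (ENSMUSG00000069310, GRCm38 chromosome 13, 23744973 to 23745602) measured 2.56, 1.895, 2.75 and 2.965 TPM in the vehicle libraries and 12.2, 14.8, 13.3 and 12.8 in the BL_cisplatin libraries. The groups did not overlap, and the mean rose 5.22-fold (log2 fold change 2.02 ± 0.21 SE, adjusted p = 4.23e-05). Hist1h3b measured 2.99 to 4.89 TPM in vehicle and 9.78 to 15.2 TPM after cisplatin, again without overlap. Hist1h3g rose from 1.09, 1.83, 1.85 and 2.33 TPM to 6.17, 6.635, 6.37 and 9.795 TPM, of which BL_cisplatin 4 was the highest. Summed over the class, H3 transcripts stood at 36.9 ± 2.63 TPM (SD, n = 4) in vehicle and 99.1 ± 9.16 TPM in BL_cisplatin.

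H2A and H2B form the outer pair of the nucleosome core, and of their genes 13 of 19 and 13 of 18 rose, with 1 fall in each class. The largest rise among all 67 was that of the H2A gene Hist1h2af (ENSMUSG00000061991, chromosome 13, 23533906 to 23534304). It measured 0.676, 0.550, 0.541 and 0.740 TPM in vehicle and 5.785, 9.65, 7.14 and 5.55 TPM in BL_cisplatin, an 11.2-fold difference of means without overlap (log2 fold change 2.28 ± 0.18 SE, adjusted p = 2.1e-05). Of the stretches of 50 bases in its transcript 94.0% also occur in transcripts of other genes, so its reads may be split among copies by the counting. Hist1h2ad rose from 0.688 to 1.71 TPM in vehicle to 4.75 to 5.54 TPM, and the other called H2A rises ran from 0.38 (Hist2h2ab) to 1.37 (Hist1h2ai). Among H2B genes Hist1h2bm rose the most, from 1.65 to 5.09 TPM in the mean, a log2 fold change of 1.18. Sharing of sequence was common: 34 of the 67 genes shared at least 50% of these stretches, and of those 25 rose and 0 fell, against 20 and 4 of the 33 that shared less. These shares also count genes that overlap a member in M21, as Gm20632 overlaps Hist2h2aa2, and not only copies elsewhere. They are over the longest M21 transcript, while reads of 23 members were recovered with a length other than the M21 exon length.

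Linker histone H1 binds where DNA enters and leaves the nucleosome, and 4 of its 6 genes rose. Hist1h1e (chromosome 13, 23620629 to 23622558) measured 83.7, 68.9, 72.6 and 73.9 TPM in vehicle and 137, 146.5, 143 and 138 TPM in BL_cisplatin, with no overlap. That is a log2 fold change of 0.91 ± 0.21 SE (adjusted p = 0.00278), the largest rise among the 10 most abundant members, though the gene overlaps Hist1h2be in M21. Hist1h1d rose from 4.91 to 6.92 TPM to 15.3 to 22.45 TPM, a log2 fold change of 1.48. Hist1h1c stood at 71.7 to 83.8 TPM in vehicle and 94.4 to 117 TPM in BL_cisplatin, without overlap. It did not pass the test (log2 fold change 0.38, adjusted p = 0.0544), but did when only the 2 groups were fitted (adjusted p = 0.00419). Hist1h1c also passed with at least 1 TPM in 4 libraries (0.042) and without HP_cisplatin 2 (0.0437) or HP_cisplatin 4 (0.00185). With abundant or composition genes left out it passed at 0.53 (adjusted p = 0.0108), and with voom on recovered reads at 0.51 (0.0136). Hist1h1t, whose product is a linker histone of the testis, had at most 7 reads in any library.

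H4 is the partner of H3 in the nucleosome core, and of its 13 genes 4 rose, 2 fell and 7 did not pass, shares of 30.8% and 15.4% that are near those of all genes tested. Hist1h4c (ENSMUSG00000060678, chromosome 13, 23697635 to 23698454) measured 224, 191, 230 and 186 TPM in vehicle and 130, 105, 126 and 135 TPM in BL_cisplatin. All 4 BL_cisplatin values were below all 4 vehicle values (log2 fold change -0.74 ± 0.13 SE, adjusted p = 0.000355). The H2B gene Hist1h2bc (ENSMUSG00000018102, chromosome 13, 23684199 to 23692908) measured 160, 172, 154 and 158 TPM in vehicle and 90.7, 90.9, 87.3 and 99.3 TPM in BL_cisplatin, the largest fall of the 67 on the log2(TPM + 1) scale (-0.80 ± 0.13 SE, adjusted p = 0.000263). Hist1h4h fell by 0.50 on the log2 scale, from 133 to 177 TPM to 101 to 140 TPM, where BL_cisplatin 4 at 140 overlapped the vehicle range. Hist3h2a fell from 1.92 to 2.502 TPM to 0.9745 to 1.42 TPM, by the mean TPM a ratio of 0.563 against 0.572 for Hist1h2bc, and its model overlaps Trim17.

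**Figure D2:**
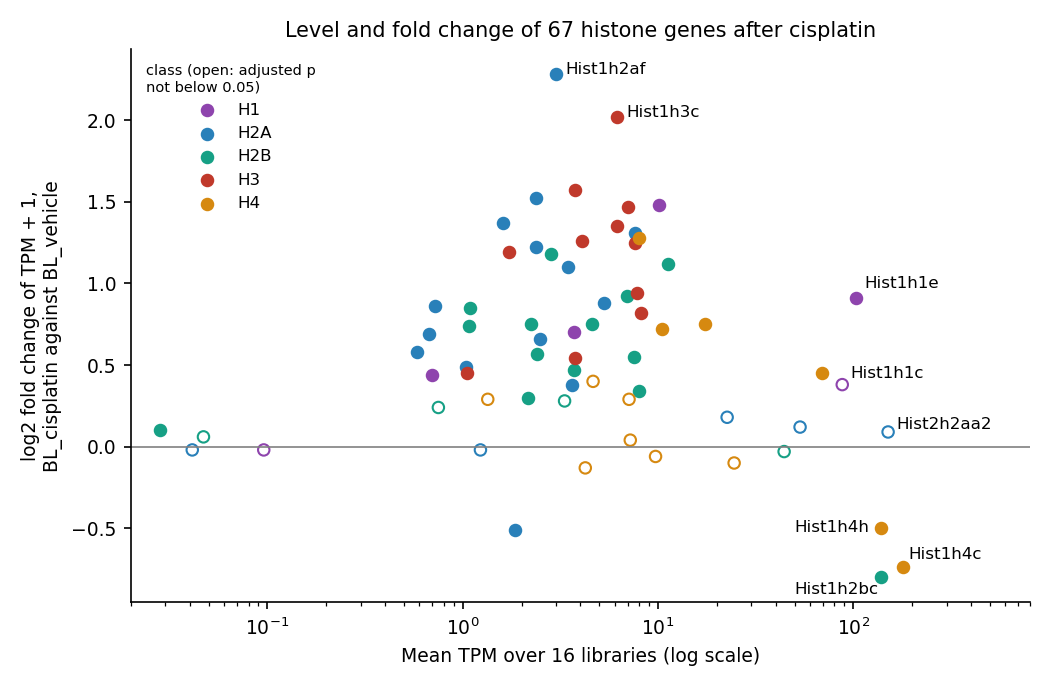
Mean TPM over 16 libraries (horizontal axis, log scale) against the log2 fold change of BL_cisplatin over BL_vehicle (vertical axis) for the 67 genes, coloured by class, open where the adjusted p is not below 0.05. Hist1h4c, Hist1h4h and Hist1h2bc lie below 0 at the right edge, while Hist1h3c and Hist1h2af lie highest at a mean below 10 TPM.

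Among the 10 members of highest level 2 rose (Hist1h1e and Hist1h4d), 3 fell and 5 did not pass, and among the other 57 there were 43 rises and 1 fall. Hist1h4d rose from 55.4 to 75.7 TPM to 76.7 to 109 TPM (log2 fold change 0.45, adjusted p = 0.0218), but did not pass without BL_vehicle 4 (adjusted p = 0.0707) or BL_cisplatin 4 (0.0699). Hist2h2aa2 stood at 142 to 153 TPM in vehicle and 152 to 158 TPM in BL_cisplatin, and its log2 fold change of 0.09 did not pass (adjusted p = 0.327). Its transcript shares all its sequence with other genes, among them Gm20632, which overlaps it in M21. Hist1h2al, Hist1h2bg and Hist1h4b also overlapped between the groups, with log2 fold changes of 0.12, -0.03 and -0.10. For Hist2h2aa2 and Hist1h2al the call changed with the scaling. With mitochondrial, haemoglobin and the 10 most abundant of all genes left out, Hist2h2aa2 (0.24, adjusted p = 0.0152) and Hist1h2al (0.28, 0.0237) passed. Hist1h2bg (0.13, 0.265) and Hist1h4b (0.05, 0.744) did not. With voom on recovered reads Hist2h2aa2 passed too (0.21, 0.0326). Summed over all 67 genes, TPM was 1210 ± 51.2 (SD, n = 4) in vehicle and 1320 ± 85.6 in BL_cisplatin. The libraries ran from 1167 to 1274 and from 1273 to 1451 TPM, and this difference was not tested. Reads of the members were 26980 to 31911 and 29966 to 36482, of 56503533 to 62604521 and 49180903 to 59348047 in all. Without the 10 highest the sum went from 198 ± 7.97 to 382 ± 46.4 TPM, and the share held by the 10 was 68.9 to 72.5% in the BL_cisplatin libraries.

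These counts held under most settings but not with the title code in the fit. With the code as a term, an effect that rests on CR_cisplatin 1 against CR_cisplatin 2 to 4, 6 members were called higher and 0 lower, and Hist1h4c (adjusted p = 0.0762) and Hist1h2bc (0.0614) did not pass at log2 fold changes of -0.74 and -0.84. Calls became fewer among all genes too, with 3.28% higher and 2.33% lower in that fit. With the mitochondrial and haemoglobin genes and the 10 genes of highest level taken out of the scaling, the median over all genes tested moved from 0.03 to 0.14. In that fit 54 members were higher and 4 lower with a median of 0.87, where 39.0% of all genes tested were higher and 16.3% lower.

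Many H2A and H2B genes lie head to head, transcribed away from each other out of 1 short stretch of DNA. Among the members 13 such pairs were found, 12 of H2A with H2B and 1 of Hist1h2bh with Hist1h3f. After cisplatin both genes rose in 8 pairs, 1 gene of the pair was called in 3 and neither in 1. In 1 pair the genes went opposite ways: Hist1h2ac, whose start lies 251 bases from that of Hist1h2bc, rose from 3.965, 3.53, 4.03 and 3.72 TPM to 7.53, 9.32, 6.865 and 7.805 TPM (log2 fold change 0.88 ± 0.12 SE, adjusted p = 9.96e-05) while Hist1h2bc fell. The same pair was again opposite in both comparisons of preconditioning with BL_cisplatin, which share the BL_cisplatin libraries with this one. Of the longest M21 transcript of Hist1h2ac 14.1% of 50-base stretches occur in other genes, and of that of Hist1h2bc 30.6%. The lengths behind their TPM were shorter, 476 bases against 2482 in M21 for Hist1h2ac and 736 against 1156 for Hist1h2bc. The share within the counted part can therefore differ and was not measured.

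**Figure D3:**
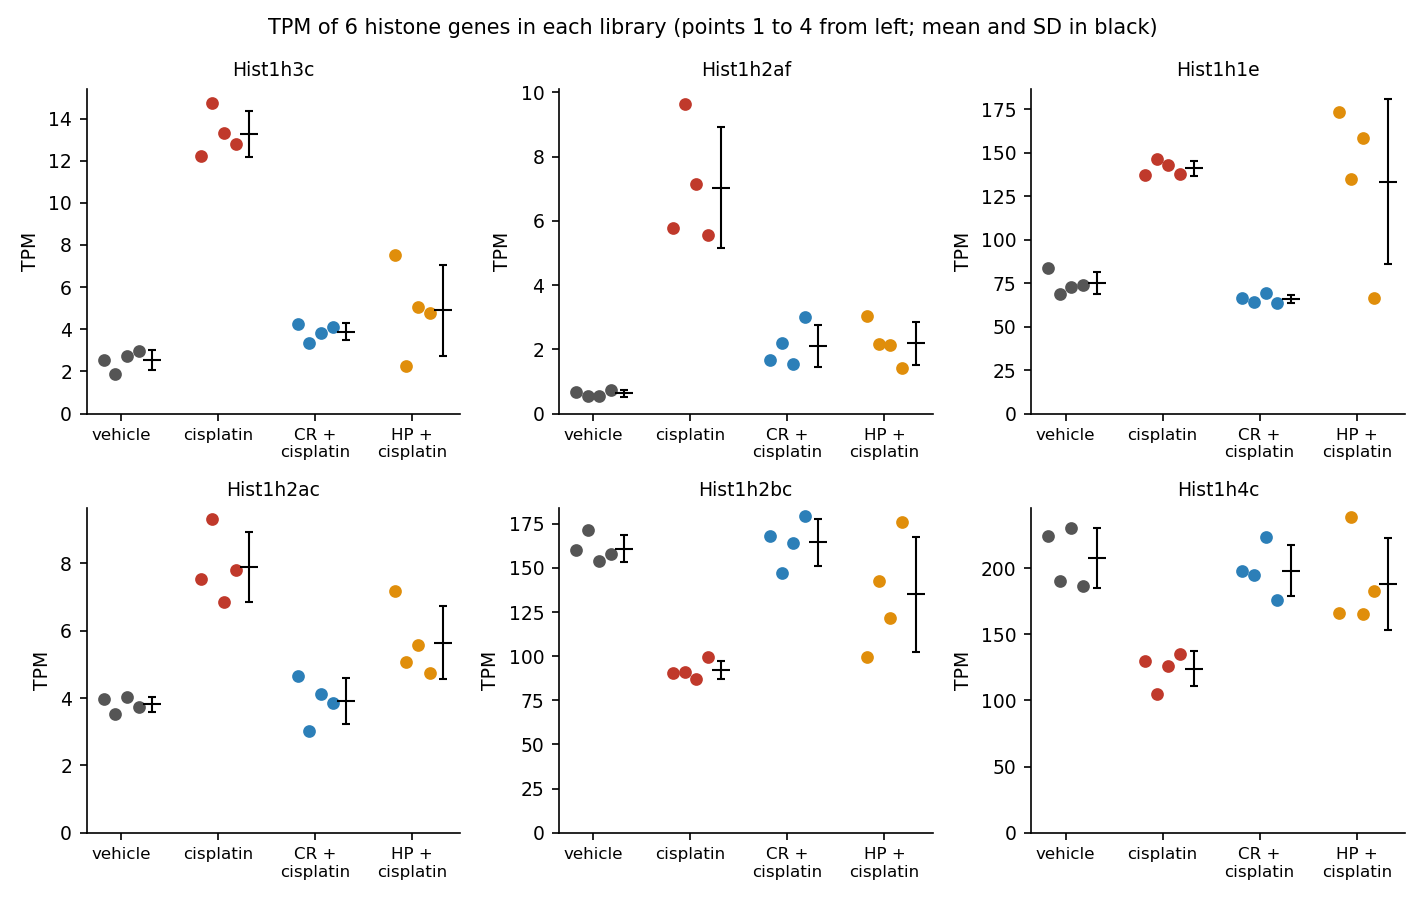
TPM (vertical axes from 0) of 6 histone genes in each of the 16 libraries, by group, with the group mean and SD in black. Hist1h3c and Hist1h2af are highest in the 4 BL_cisplatin libraries, Hist1h2ac is at 6.865 to 9.32 TPM there and at 7.19 TPM in HP_cisplatin 1, and Hist1h2bc is at 87.3 to 99.3 and Hist1h4c at 105 to 135 TPM there, while Hist1h1e is high in HP_cisplatin 1 to 3 (135 to 173.5 TPM) and at 66.2 TPM in HP_cisplatin 4.

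Promoters of 58 members were found in RefSeq (GRCm38.p6), each from 250 bases before the start to 50 after it. The letters CCAAT, on either strand, were in 84.5% of them and in 37.4% of all 32851 promoters of that length. They were in every H1, H2A, H2B and H3 promoter found and in 3 of 12 of H4. TATAAA, the core of a TATA box, was in 56.9% against 13.6%. The octamer ATTTGCAT, known from H2B promoters, was in 12 members, 7 of H2A and 5 of H2B, and in 1.7% of all promoters. The 250 bases before the start are shown for an H3 gene that rose, for the stretch between the opposite pair and for both H4 genes that fell, with these 3 motifs and their reverse complements in capitals. All lie on GRCm38.p6 chromosome 13, Hist1h3g at chr13:23535168-23535417 (plus strand), Hist1h2ac at chr13:23683960-23684209 (minus), Hist1h4c at chr13:23698459-23698708 (minus) and Hist1h4h at chr13:23530794-23531043 (plus).

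Hist1h3g: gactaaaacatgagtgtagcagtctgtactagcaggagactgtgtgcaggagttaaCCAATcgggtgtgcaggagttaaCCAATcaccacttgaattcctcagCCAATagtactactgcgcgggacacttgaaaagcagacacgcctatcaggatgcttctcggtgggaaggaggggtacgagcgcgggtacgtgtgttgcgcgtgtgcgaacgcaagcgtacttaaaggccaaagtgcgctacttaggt
Hist1h2ac: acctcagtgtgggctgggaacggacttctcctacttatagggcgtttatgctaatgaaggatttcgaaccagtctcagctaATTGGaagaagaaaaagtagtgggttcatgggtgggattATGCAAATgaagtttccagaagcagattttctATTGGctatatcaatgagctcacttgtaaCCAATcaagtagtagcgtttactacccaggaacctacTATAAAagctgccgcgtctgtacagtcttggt
Hist1h4c: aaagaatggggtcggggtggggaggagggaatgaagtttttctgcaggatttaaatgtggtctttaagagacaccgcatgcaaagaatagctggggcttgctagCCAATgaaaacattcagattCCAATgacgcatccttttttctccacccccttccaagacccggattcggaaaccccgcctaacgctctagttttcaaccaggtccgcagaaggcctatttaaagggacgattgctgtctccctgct
Hist1h4h: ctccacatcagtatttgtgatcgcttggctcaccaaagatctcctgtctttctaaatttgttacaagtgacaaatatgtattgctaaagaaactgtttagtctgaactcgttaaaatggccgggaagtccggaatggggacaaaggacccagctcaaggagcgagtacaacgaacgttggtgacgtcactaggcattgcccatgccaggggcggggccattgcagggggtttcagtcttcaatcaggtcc

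Of the 49 members with CCAAT 37 rose and 2 fell after cisplatin (median log2 fold change 0.70), and of the 9 without it, all of class H4, 2 rose and 1 fell, with a median of 0.04. Class and motif therefore cannot be told apart here. Hist1h4c holds CCAAT and fell, and Hist1h4h holds none of the 3 and fell too. By stem-loop, 19 of the 24 genes with the form of Hist1h1e rose and 1 fell, against 3 and 2 of the 7 with the form of Hist1h4c. By M21 gene model, 15 of 21 that end within 60 bases of the stem-loop rose and 1 fell, and 12 of 22 that run on rose and 2 fell. Members without a stem-loop found are not in this split. Reads were not always counted over these models: the length behind the TPM was 395 bases for Hist1h4c and 476 for Hist1h2ac, against 820 and 2482 in M21. The split therefore does not show whether reads came from the part past the stem-loop.

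After calorie restriction most histone genes were lower than after cisplatin alone, and none passed the test against vehicle. Against BL_cisplatin 46 of 67 genes were lower (68.7%) and 4 higher, where 30.7% of all genes tested were lower and 19.7% higher. The median log2 fold change was -0.63 over the 67 and -0.03 over all genes, and in 44 members all CR_cisplatin libraries lay below all BL_cisplatin libraries and in 4 above (all genes: 29.9% below and 18.8% above). Every H3 gene was lower, by 0.55 to 1.55 on the log2 scale, as were 12 H2A, 12 H2B, 7 H4 and 4 H1 genes.

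Hist1h3c measured 4.26, 3.34, 3.80 and 4.095 TPM in CR_cisplatin, all below the BL_cisplatin range (log2 fold change -1.55 ± 0.21 SE, adjusted p = 0.000107). Hist1h3e stood at 4.18 to 5.085 TPM against 11.6 to 14.96 TPM, and Hist1h3i at 2.08 to 3.505 against 5.79 to 10.9 TPM. Hist1h1e was at 66.2, 64.4, 69.0 and 63.8 TPM, all below the BL_cisplatin libraries (-1.09, adjusted p = 0.000844), and 3 of these 4 values were below all vehicle libraries as well. The 4 genes that were higher are named with their values, and both comparisons share the BL_cisplatin libraries. Hist1h2bc measured 168, 147, 164 and 179 TPM, all above the BL_cisplatin libraries (0.83 ± 0.13 SE, adjusted p = 0.000229), and Hist1h4c 198, 195, 223.5 and 176 TPM (0.67, adjusted p = 0.000714). Hist1h4h and Hist3h2a were higher by 0.40 and 0.52.

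Only within the first title code do CR_cisplatin and BL_cisplatin libraries meet, with 1 CR_cisplatin library. CR_cisplatin 1 lay below all 4 BL_cisplatin libraries in 49 of 67 members, the 11 H3 genes among them, where 39.4% of all genes tested did so. Its Hist1h2bc (168 TPM) and Hist1h4c (198 TPM) lay above all 4. With the code as a term 20 members were lower and 3 higher, where 14.5% of all genes tested were lower and 10.5% higher.

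Against vehicle, CR_cisplatin differed in 0 of the 67 genes (limma), while 2 had an unadjusted p below 0.05. Few genes passed anywhere in this comparison, 0.0149% of those tested higher and 0.0558% lower. The 2 were Hist1h2af, at 1.67, 2.19, 1.53 and 2.999 TPM in CR_cisplatin against 0.541 to 0.740 TPM in vehicle (log2 fold change 0.91, 95% interval 0.52 to 1.30, adjusted p = 0.158), and Hist1h3c (0.47, interval 0.02 to 0.92, adjusted p = 1.0). Neither overlapped between the groups. With a pseudocount of 0.1 in place of 1, 1 member was called higher, and with voom on recovered reads 0 were called and 1 had an unadjusted p below 0.05. The median log2 fold change over the 67 was 0.01, with a range of -0.31 to 0.91.

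After hypoxia, too, most H3 genes were lower than after cisplatin alone, while 1 H1 gene was. Against BL_cisplatin 25 of 67 genes were lower (37.3%) and 2 higher, where 9.41% of all genes tested were lower and 8.08% higher. The median log2 fold change was -0.42 over the 67 and -0.01 over all genes, and 21 members lay below in every library and 2 above (all genes: 7.93% and 4.1%). Of the 11 H3 genes 10 were lower, all but Hist2h3b, together with 9 of 19 H2A, 4 of 18 H2B, 1 of 6 H1 and 1 of 13 H4 genes. No member was called when only these 2 groups were fitted, nor with the title code as a term, and in these fits 0 of all genes tested passed, with 5900 and 2414 at an unadjusted p below 0.05.

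Hist1h3c measured 7.52, 2.25, 5.04 and 4.78 TPM in HP_cisplatin 1 to 4, all below the BL_cisplatin libraries (log2 fold change -1.35 ± 0.21 SE, adjusted p = 0.00352). Hist1h2af was at 3.05, 2.16, 2.13 and 1.40 TPM (-1.33, adjusted p = 0.0018) and Hist1h2ad at 2.355, 1.13, 1.55 and 1.65 TPM (-1.23, adjusted p = 0.00206). HP_cisplatin 1 was the highest of the group for all 3. Hist1h4c, higher than in BL_cisplatin, measured 165.7, 238.5, 165.5 and 183 TPM (0.59, adjusted p = 0.0112). Hist1h2bc measured 99.8, 143, 122 and 176 TPM (0.52, adjusted p = 0.0202), which did not pass without BL_cisplatin 3 (adjusted p = 0.0565) or without HP_cisplatin 2 (0.0615).

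The H1 genes of highest level, Hist1h1e and Hist1h1c, did not pass against BL_cisplatin, while Hist1h1d was lower at 13.4, 8.58, 10.2 and 6.49 TPM (-0.87, adjusted p = 0.0112). Hist1h1e measured 173.5, 135 and 159 TPM in HP_cisplatin 1 to 3, near the BL_cisplatin range of 137 to 146.5, and 66.2 TPM in HP_cisplatin 4, below every vehicle library. Hist1h1c stood at 102, 121 and 116 TPM in the first 3 and at 64.9 in the fourth. In HP_cisplatin 2 the summed TPM of H1 genes, most of it from Hist1h1e and Hist1h1c, was 268, against 150 to 177 in vehicle, while that of H3 genes was 38.3, inside the vehicle range of 33.5 to 39.1. With all 4 libraries Hist1h1e (log2 fold change -0.17, adjusted p = 0.618) and Hist1h1c (-0.05, adjusted p = 0.865) did not pass against BL_cisplatin. Whether H1 and H3 genes differed in their response was not tested.

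**Figure D4:**
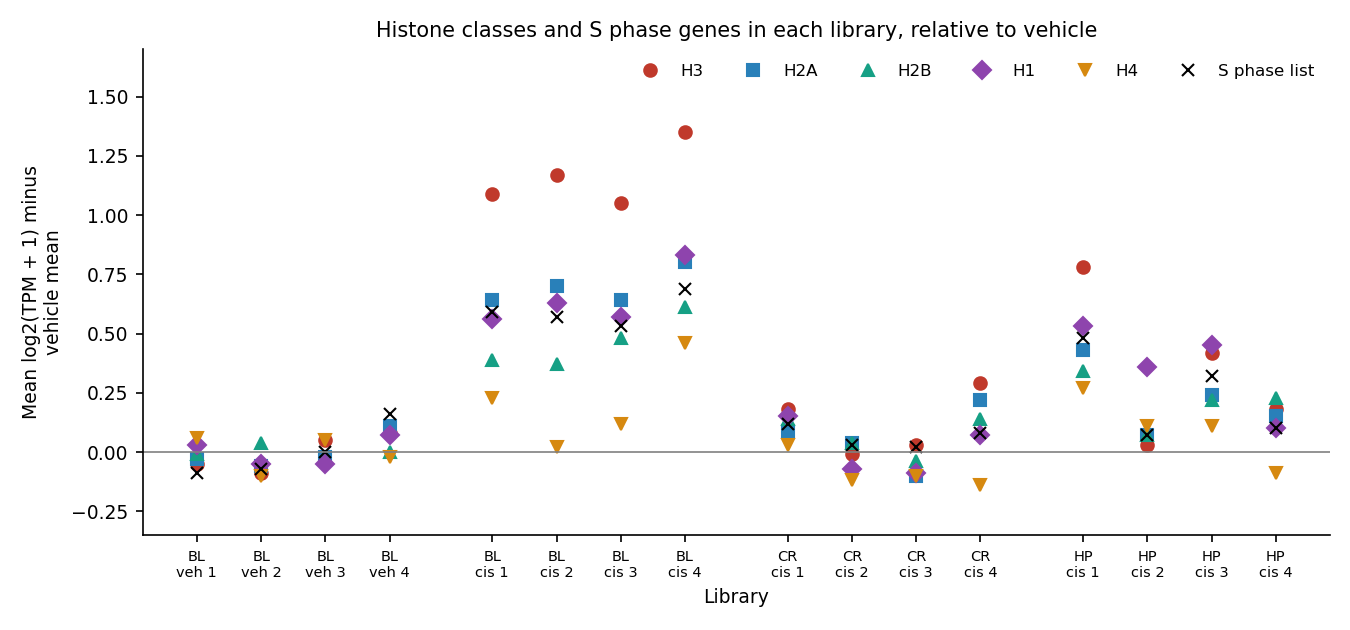
Mean over the genes of each histone class, and over 30 S phase genes, of log2(TPM + 1) minus the vehicle mean (vertical axis) in each of the 16 libraries (horizontal axis). H3 lies at 1.05 to 1.35 in the BL_cisplatin libraries and at 0.78, 0.03, 0.42 and 0.18 in HP_cisplatin 1 to 4, where H1 lies at 0.53, 0.36, 0.45 and 0.10.

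By library, HP_cisplatin 1 lay above all 4 vehicle libraries in 48 of 67 members, HP_cisplatin 2 in 18, HP_cisplatin 3 in 36 and HP_cisplatin 4 in 25, where 41.5%, 42.6%, 42.5% and 22.1% of all genes tested did so. The share in HP_cisplatin 2, 18 of 67, was thus below that of genes in general in that library. Proximal tubule markers summed to 195, 1424, 552 and 2552 TPM in HP_cisplatin 1 to 4, against 2512 to 3265 in vehicle and 103 to 167 in BL_cisplatin, so that the library with the lowest tubule markers had the highest H3 values, and their part in the result was not tested. The count against BL_cisplatin ranged from 16 to 37 when each library was left out in turn, 16 without HP_cisplatin 2. Without HP_cisplatin 4 and CR_cisplatin 4 the count of members was 2 higher and 20 lower, with a median of -0.30, where 4.5% of all genes were higher and 3.9% lower. Hist1h3b did not pass in that fit (-0.77, adjusted p = 0.0538).

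Against vehicle, 9 members were higher in HP_cisplatin and 0 lower, where 9.37% of all genes tested were higher and 5.06% lower. They were Hist1h2af (0.95), Hist1h4a (0.84), Hist1h1e (0.74), Hist1h3g (0.68), Hist1h3b (0.67), Hist1h3c (0.67), Hist1h2bb (0.65), Hist1h1d (0.62) and Hist1h2ac (0.45), named because the count is small. At 9 of 67 the share was near that of all genes. With each library left out in turn, the count of members called was lowest at 1, without BL_vehicle 1, BL_vehicle 2, HP_cisplatin 1 or HP_cisplatin 3. In those fits 0.517 to 2.63% of all genes tested were higher and 0.439 to 1.67% lower. Without HP_cisplatin 4 it was 16, of which 15 were higher and 1 lower, where 22.2% of all genes were higher and 11.5% lower. Without HP_cisplatin 4 and CR_cisplatin 4 it was 14 higher and 1 lower, a share of members near the 21.2% of all genes that were higher in that fit. It was 0 with only these 2 groups fitted, where 2 of all genes tested were higher and 2 lower. Between the preconditioned groups 3 members were lower in CR_cisplatin than in HP_cisplatin (Hist1h1e, Hist2h4 and Hist1h2ac) and 0 higher, against 5.13% and 2.9% of all genes, and leaving out any library but HP_cisplatin 4 brought the count to 0, in fits that called at most 9 of all genes tested. Without HP_cisplatin 4 it was 14, of which 13 were lower, near the share of all genes lower in that fit (21.2%).

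Genes that act on the same mRNAs and proteins were read beside the members. Of 17 tested genes for the processing and transcription of histone mRNA, 8 rose and 0 fell after cisplatin, with a median log2 fold change of 0.13. Of all genes tested 31.3% rose and 19.3% fell. Npat, which activates histone genes at the start of S phase, rose from 3.40 ± 0.379 to 4.71 ± 0.292 TPM (SD, n = 4, log2 fold change 0.38, adjusted p = 0.00112). Lsm11, of the U7 particle that helps cut the mRNA end, rose from 0.876 to 1.67 TPM (0.51), and Eri1, an exonuclease that trims and degrades histone mRNA, from 2.99 to 5.18 TPM (0.63). Slbp stood at 3.04 ± 0.203 TPM in vehicle and 3.94 ± 0.177 in BL_cisplatin (0.29, adjusted p = 0.00445). Against BL_cisplatin 9 of the 17 were lower and 1 higher in CR_cisplatin, and 3 lower and 0 higher in HP_cisplatin. Of all genes tested 30.7% were lower in CR_cisplatin and 9.41% in HP_cisplatin.

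Chaperones that carry new histones to DNA rose with them in part: 9 of 16 rose and 1 fell, with a median of 0.34 (all genes tested: 31.3% and 19.3%). Chaf1b, of the assembly factor CAF-1, rose from 0.217 to 1.34 TPM (0.95, adjusted p = 8.35e-05) and Asf1b, which hands H3 and H4 to it, from 0.204 to 0.890 TPM (0.65). In CR_cisplatin 9 of the 16 were lower than in BL_cisplatin and 1 higher, and in HP_cisplatin 4 were lower (all genes tested: 30.7% and 9.41% lower).

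Among 30 S phase genes 23 rose after cisplatin, with a median of 0.66, where 31.3% of all genes tested rose. Rrm2, a subunit of the enzyme that makes deoxynucleotides, rose from 0.855 ± 0.328 to 7.03 ± 0.576 TPM (log2 fold change 2.13), and Fen1, which removes primer flaps at the fork, from 2.53 to 5.80 TPM (0.95). In CR_cisplatin 24 were lower than in BL_cisplatin and in HP_cisplatin 18 (all genes tested: 30.7% and 9.41%), while 0 of 30 differed between CR_cisplatin and vehicle. In HP_cisplatin 2 the mean of the list lay at 0.07 above vehicle on the log2 scale, beside 0.03 for H3 genes and 0.36 for H1 genes.

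Most variant histones are made outside S phase too, from polyadenylated mRNAs, though not every gene listed here keeps to this. Of 11 variant genes 6 rose and 3 fell after cisplatin, with a median of 0.27, where 31.3% of all genes tested rose and 19.3% fell. These values do not show which end an mRNA had. H2afx, whose protein is phosphorylated at DNA breaks, rose from 5.09 ± 0.648 to 15.2 ± 1.23 TPM (1.41, adjusted p = 8.63e-05), and H3f3b, a gene for H3.3, from 40.4 to 78.4 TPM (0.94). H2afv, a gene for an H2A.Z protein, fell from 18.9 to 10.3 TPM (-0.82). The single gene H3f3b thus stood above the sum of the 11 H3 members in vehicle, at 40.4 against 36.9 TPM, and below it in BL_cisplatin, at 78.4 against 99.1 TPM.

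Markers of kidney tubules, of other cells and other RNAs without a poly(A) tail moved too. All 5 proximal tubule markers fell after cisplatin, their sum going from 2790 ± 334 to 129 ± 28.2 TPM (SD, n = 4), and both thick ascending limb markers fell, from 1700 ± 411 to 287 ± 142 TPM. Of 10 leukocyte markers 5 rose and 4 fell after cisplatin, their sum going from 13.5 to 18.1 TPM in vehicle to 10.01 to 14.2 TPM in BL_cisplatin. The neutrophil genes S100a8 and S100a9 rose to 1.40 and 2.97 TPM from 0.035 and 0.154, Csf1r of macrophages fell from 12.6 to 4.04 TPM, and Ly6g was at 0 in the mean of vehicle and Ms4a1 in that of BL_cisplatin. Red blood cell markers summed to 18.2 to 30.2 TPM in vehicle and 0.353 to 1.22 TPM in BL_cisplatin. Of 5 other RNAs known for lacking a poly(A) tail 3 rose (Malat1, Terc and Rpph1) and 0 fell after cisplatin, where 31.3% of all genes tested rose. Their median was 0.59, beside 0.57 for the 67 members. Against BL_cisplatin it was -0.50 in CR_cisplatin, beside -0.63, and -0.08 in HP_cisplatin, beside -0.42 for the members. The part of these cells and of RNA composition in the histone results was not tested.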

How the data were processed

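Total RNA of 16 kidney pieces was depleted of ribosomal RNA, copied with random primers and sequenced, per the labels' protocols. The submitters' processing notes name STAR 2.5, featureCounts, Subread 1.5 and the builds mm10 and GRCm38, with no role or order. The authors deposited TPM values for 46078 genes, without counts. Multiples of 1 read in low values gave whole reads with the GENCODE M21 exon length for 76.3% of genes with reads and with a searched length for the rest (tolerance 0.0001 reads), of which 44 and 23 were members. With a searched length, whole reads hold by construction. Lengths that differ from the authors' leave the TPM unchanged.

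Here log2(TPM + 1) of 26898 genes with a value above 0 in at least 4 of 16 libraries was tested with limma 3.58.1 (statmod 1.5.0, R 4.3.3), by group over all libraries with a trended, robust prior, and p-values were adjusted by Benjamini-Hochberg over all genes, 2-sided, with a threshold of 0.05. A gene that passed only through the group where it is high was also kept. The script was tested on simulated data. Python 3.11.15 made the other tables. Alternatives were a pseudocount of 0.1, a filter of at least 1 TPM in 4 libraries (which 60 members passed and 7 did not) or none, the 2 compared groups alone, the title code as a term, 56 abundant or composition genes left out, a prior that is not robust, voom on recovered reads, and each library left out. The counts without HP_cisplatin 4 and CR_cisplatin 4, and voom with the 56 genes left out, were chosen after seeing the data.

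The members and lists were chosen with earlier results of these data known. Named are up to 6 called rises and 6 called falls of largest change per main comparison at a mean of at least 1 TPM, and the 10 members of highest mean TPM. Hist1h2bm, Hist1h2ac, Hist1h3d, Hist2h2ab, Hist2h3b, Hist2h4, the members listed for hypoxia against vehicle and the genes named of the other lists outside the 4 of smallest adjusted p were named after their values were seen. Whole-library and member totals come from recovered reads. 4 members never reached 20 reads in a library. The result of 1 gene of the S phase list is not reported here.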

Additional observations from a re-analysis of the deposited data

Results flagged for a closer look

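In 3 of 88 groups of 4 libraries examined, 1 library stood apart from the other 3 by more than Dixon's 95% critical value for 4 values, which chance gives in about 1 of 20 groups. Hist1h4h measured 140 TPM in BL_cisplatin 4 and 101 to 106 TPM in the other BL_cisplatin libraries. Hist1h3g measured 9.79 TPM in BL_cisplatin 4 and 6.17 to 6.63 TPM in the other BL_cisplatin libraries. Hist1h1d, a linker histone gene, measured 9.37 TPM in CR_cisplatin 1 and 6.06 to 6.27 TPM in the other CR_cisplatin libraries.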

How the results depend on the processing

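No paired analysis was possible because the labels give the libraries no replicate numbers. Of 156 alternative counts of called members 117 stayed within 1.5 times the count reported and 39 did not. With the title code as a term the count was 6 for BL_cisplatin against vehicle, 23 for CR_cisplatin against BL_cisplatin, 0 for HP_cisplatin against BL_cisplatin and 0 for CR_cisplatin against HP_cisplatin. With only the 2 groups fitted it was 0 for HP_cisplatin against BL_cisplatin, against vehicle and against CR_cisplatin. A pseudocount of 0.1 gave 1 for CR_cisplatin against vehicle. For CR_cisplatin against HP_cisplatin it was 5 with at least 1 TPM in 4 libraries, 0 with no filter and 11 without HP_cisplatin 4 and CR_cisplatin 4, which gave 15 for HP_cisplatin against vehicle. The cause was not tested. Leaving out each library gave 42 to 50 for BL_cisplatin against vehicle, 48 to 52 for CR_cisplatin against BL_cisplatin, 16 to 37 for HP_cisplatin against BL_cisplatin, 0 to 0 for CR_cisplatin and 1 to 16 for HP_cisplatin against vehicle, and 0 to 14 for CR_cisplatin against HP_cisplatin. An arm left with 3 libraries shares the spread of all groups.

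Changes of sign were seen only in named genes that did not pass. For BL_cisplatin against vehicle, Hist1h2bg (-0.03) was 0.13 with the composition genes left out, 0.10 with voom, 0.07 with both, 0.03 without BL_vehicle 2 and 0.01 without BL_cisplatin 1, and Hist1h4b (-0.10) was 0.05, 0.03 and 0.00 in the first 3 of these. For CR_cisplatin against BL_cisplatin, Hist1h2bg (0.08) was -0.07, -0.04 and -0.03 and Hist1h4b (0.11) was -0.04, -0.01 and -0.00 in the same 3. For HP_cisplatin against BL_cisplatin, Hist1h1e (-0.17) was 0.13 without HP_cisplatin 4 and 0.13 without CR_cisplatin 4 too, Hist2h2aa2 (-0.01) was 0.04 and 0.04, Hist1h2al (-0.05) was 0.02 and 0.02, and Hist1h1c (-0.05) was 0.15 and 0.15, 0.02 without BL_cisplatin 2 and 0.01 with the title code. Hist1h2bg (-0.05) was 0.05 with the title code and 0.00 without HP_cisplatin 1.

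The opposite ends over the libraries left out were -0.06 for Hist1h2bg in BL_cisplatin against vehicle (without BL_vehicle 4), and in HP_cisplatin against BL_cisplatin -0.33 for Hist1h1e (without HP_cisplatin 1), -0.15 for Hist1h1c (without HP_cisplatin 2) and -0.12 for Hist1h2bg (without HP_cisplatin 4).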
